A study of Bos taurus with 63 samples.

Results

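Expression of 3 polymorphic class II genes of the bovine major histocompatibility complex (BoLA) was described across animals: BOLA-DRB3 (ENSBTAG00000013919), BOLA-DQB (ENSBTAG00000021077) and BOLA-DQA5 (ENSBTAG00000009656). They were chosen by identifier from the 23010 genes with counts. The RNA was from leukocytes, left after red cells of blood were lysed, of German Holstein dairy cows (dams) and of female calves. Control dams (n = 19) were sampled without heat stress (HS) and direct HS dams (n = 12) after a daily mean temperature-humidity index (THI) of at least 60 on the previous day, both in the last days before calving. Control calves (n = 30) were sampled in their first weeks of life and are without heat stress in the labels. In the methods of the study, calves were grouped by heat load on the dam late in gestation, and direct heat stress of a calf was a separate term, which the labels do not give. Each library came from a separate animal, the labels name the same batch for all of them, and which calf belongs to which dam is not in the labels. The study sampled cows and their own female calves, so dams and calves here can be related. Tests between calves and dams took the animals as independent. The groups add up to 61 animals with between 4340680 and 19584521 reads on genes per library.

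Class II molecules are pairs of an alpha and a beta chain that hold peptides from engulfed proteins on the cell surface and show them to CD4+ T cells. In blood they are carried mainly by B cells and monocytes. BOLA-DRB3 encodes the beta chain of the DR molecule and is the main expressed, highly polymorphic DRB gene of cattle. BOLA-DQB and BOLA-DQA5 encode a beta and an alpha chain of DQ molecules, and the number of DQ genes differs between cattle haplotypes. In the RefSeq annotation of ARS-UCD2.0, which served for names and gene order alone, the protein-coding genes of this part of chromosome 23 follow each other as BOLA-DQA2, BOLA-DQB, BOLA-DQA5, BOLA-DQB1, LOC100848815 (with BoLA-DQA1 among its synonyms), BOLA-DRB3, BOLA-DRB2 and BOLA-DRA.

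The counts were made on the other build ARS-UCD1.2, where reads of every animal were mapped to the same reference alleles. Near-identical DQ copies can share reads, so the counts of BOLA-DQB and BOLA-DQA5 are uncertain in this respect, and the part of allele mapping in any difference between animals was not tested. In bulk leukocytes, fewer cells of a type and less RNA per cell cannot be told apart. No annotation gene out of 37063 carried an Ensembl identifier, so names could not be assigned to the other rows. Class II partner genes, their regulators and markers of leukocyte types were therefore not looked up, and other genes are given by identifier. Levels are CPM, the counts scaled to a common library size after TMM normalization, and they were not compared between genes, because gene lengths were not used here.

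BOLA-DRB3 was expressed in every animal and varied continuously. In control dams, the lowest value was 707 CPM, the median 1108 CPM and the highest 1504 CPM, with a mean of 1045 ± 193 (SD, n = 19). Direct HS dams lay in the same range, from 806 CPM over a median of 1066 CPM to 1383 CPM (mean 1098 ± 157, SD, n = 12). Control calves ranged from 88.6 CPM over a median of 385 CPM to 967 CPM (mean 409 ± 222, SD, n = 30). Dams thus differed little in this gene, and calves more. On the log2 scale its SD was 0.27 in control dams and 0.21 in direct HS dams, and 40.5% and 21.5% of genes had a lower SD. In calves the SD was 0.93, and 93.2% of genes had a lower one.

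BOLA-DQB was read in every animal at levels that spread widely in each group. Control dams ranged from 20.3 CPM over a median of 59.6 CPM to 630 CPM (mean 126 ± 159, SD, n = 19). Direct HS dams ranged from 17.1 CPM over 59.7 CPM to 417 CPM (mean 85.4 ± 110, SD, n = 12). Control calves ranged from 2.93 CPM over 17.9 CPM to 179 CPM (mean 31.0 ± 33.1, SD, n = 30). The SD on the log2 scale was 1.39, 1.31 and 1.35 in these groups, and between 98.6% and 99.6% of genes had a lower SD. A few animals stood above the rest. Among control dams, HS-IU_1712 (276 CPM), HS-IU_1828 (330 CPM), HS-IU_1711 (352 CPM) and HS-IU_1808 (630 CPM) were set apart from the other 15 dams, of which the highest had 93.7 CPM. Among direct HS dams, HS-IU_1516 with 417 CPM was followed by a dam with 120 CPM. The calf HS-IU_2009 with 179 CPM was followed by a calf with 64.0 CPM.

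BOLA-DQA5 separated the animals of every group into a low and a high cluster. Its SD on the log2 scale was the widest of the 3 genes, with 2.16 in control dams, 4.11 in direct HS dams and 3.37 in control calves. In control dams, values were 5.16 CPM in HS-IU_1711, 7.76 CPM in HS-IU_1712 and 11.1 CPM in HS-IU_1808, and between 98.4 and 631 CPM in the other 16 dams. In direct HS dams, values were 0.139 CPM in HS-IU_1823, 0.334 CPM in HS-IU_1568 and 1.34 CPM in HS-IU_1835, and between 264 and 653 CPM in the other 9 dams. No value lay between these clusters. Of the 30 calves, HS-IU_2017, HS-IU_2030 and HS-IU_2031 had 0 reads on BOLA-DQA5, which allows up to 0.277, 0.488 and 0.378 CPM, respectively, at the depth of their libraries. Another 3 calves were close to 0, with 0.629 CPM in HS-IU_2008, 0.808 CPM in HS-IU_2012 and 1.46 CPM in HS-IU_2018. The other 24 calves had between 25.6 and 362 CPM. Group medians were 336 CPM in control dams, 298 CPM in direct HS dams and 106 CPM in control calves, and group means were 332 ± 199, 287 ± 218 and 127 ± 111 CPM (SD).

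**Figure D1:**
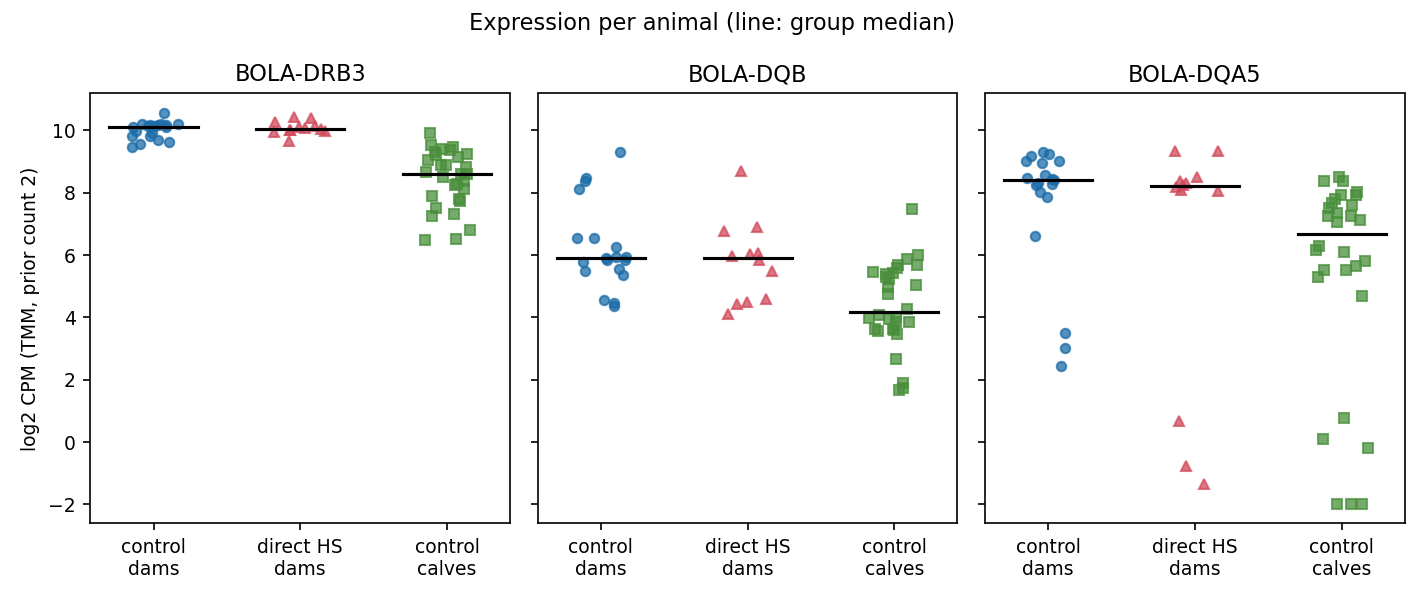
Expression of the 3 genes in each animal as log2 CPM (vertical axis; TMM, prior count of 2) in control dams, direct HS dams and control calves; each point is an animal and the line is the group median. BOLA-DRB3 and BOLA-DQB form continuous clouds, with a few dams high in BOLA-DQB, whereas 3, 3 and 6 animals lie far below the rest in BOLA-DQA5.

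The low cluster of BOLA-DQA5 rested on few reads. In the 3 control dams it was made of 28, 47 and 83 reads, and in the 3 direct HS dams of 1, 2 and 8 reads. The 3 calves with reads above 0 had 4, 10 and 17. Control dams of the low cluster were thus above direct HS dams and calves of the low cluster, without overlap. The interval for the share of low animals was wide in each group. It was 15.8% in control dams (3 of 19, exact 95% Clopper-Pearson interval from 3.38% to 39.6%), 25% in direct HS dams (3 of 12, from 5.49% to 57.2%) and 20.0% in control calves (6 of 30, from 7.71% to 38.6%). These intervals cover counting error of animals only, and neither they nor the tests that follow allow for kinship between animals. The share did not differ detectably from that of control dams in direct HS dams (two-sided Fisher's exact test, p = 0.653) or in calves (p = 1 in the same exact test).

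To put the shape on a common scale, the largest gap between neighbouring animals in sorted log2 CPM was taken for every gene with a mean count of at least 14 in a group. A gene was called on/off with a gap of at least 2, which is a 4-fold step, and at least 2 animals on each side. BOLA-DQA5 was on/off in all groups, with gaps of 3.12 in control dams, 7.37 in direct HS dams and 3.92 in control calves. By this measure 0.0686% of genes were on/off in control dams (8 of 11668), 0.0862% in direct HS dams (10 of 11595) and 0.0937% in control calves (11 of 11736). Among the 11280 genes measured in each of the 3 groups, BOLA-DQA5 was on/off in all of them and no other gene was (0.00887%). This count rose to 2 without TMM factors and to 3 without the calves HS-IU_2008, HS-IU_2010 and HS-IU_2015, an alternative taken from earlier results of these data.

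The other members did not meet the rule. The largest gaps of BOLA-DRB3 were 0.35, 0.30 and 0.44, and those of BOLA-DQB were 1.55, 1.8 and 1.48 in control dams, direct HS dams and control calves. BOLA-DQB was therefore close to the limit. With a gap of 1 in place of 2, it was on/off in control dams (15 animals below and 4 above) and set apart by the single animals named above in the other groups. BOLA-DRB3 remained continuous with a gap of 1.

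**Figure D2:**
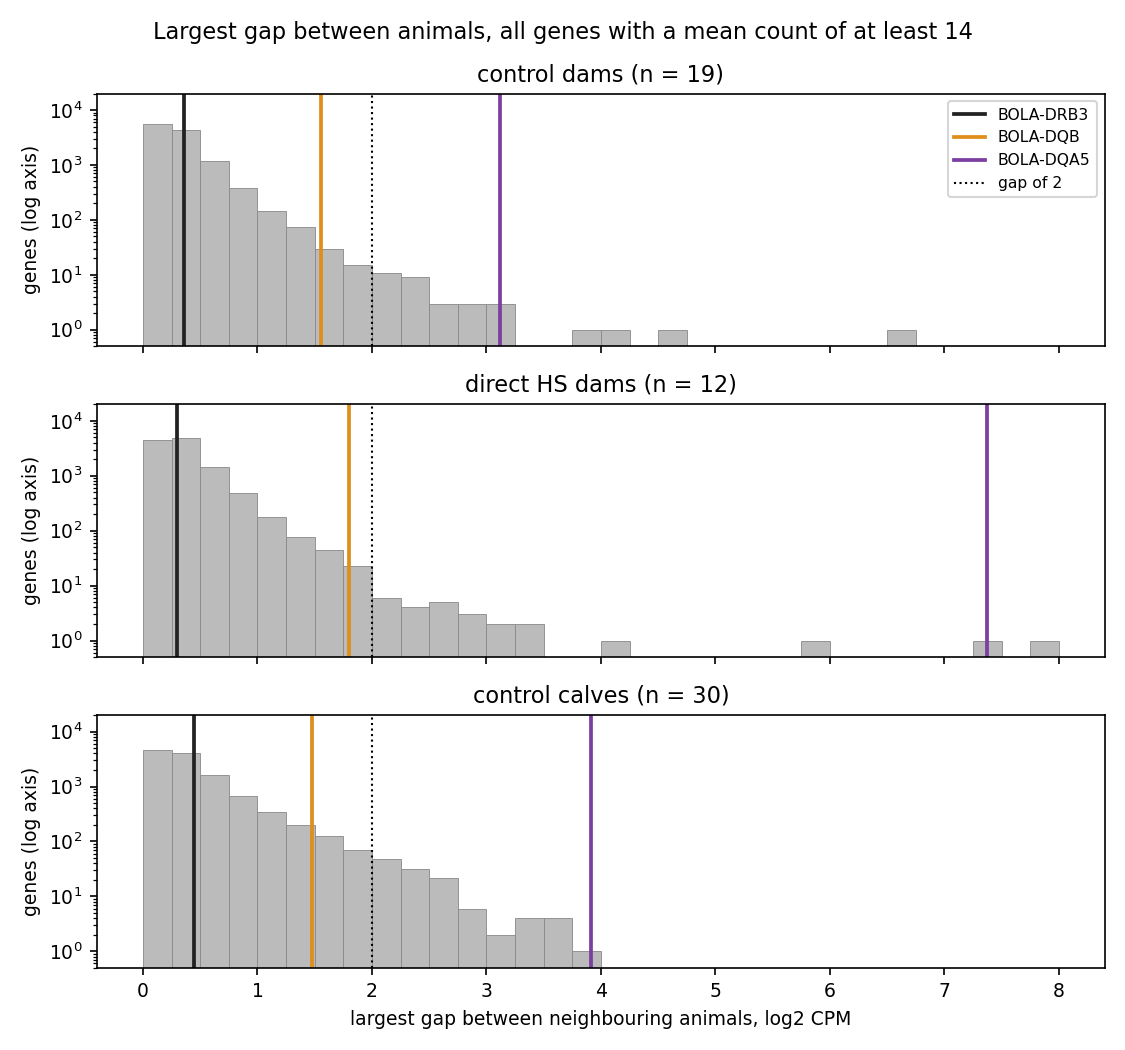
Number of genes (log axis) by the largest gap between neighbouring animals in log2 CPM, in control dams, direct HS dams and control calves; lines mark the 3 BoLA genes and the gap of 2, and genes right of it include those set apart by a single animal. BOLA-DRB3 lies in the bulk of genes, BOLA-DQB between 1.48 and 1.8, and BOLA-DQA5 at 3.12, 7.37 and 3.92.

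A second measure was the fit of log2 CPM by 1 or 2 normal distributions, compared by the Bayesian information criterion (BIC), where a positive difference favours 2. For BOLA-DQA5 the difference was 24.0, 27.0 and 29.4 in control dams, direct HS dams and control calves. Differences above 10 were found in 0.566%, 0.431% and 1.53% of genes in these groups. For BOLA-DRB3 the differences were -2.48, -4.69 and -2.16, and for BOLA-DQB 3.73, -3.39 and -6.16.

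Direct HS and control dams were compared by edgeR's quasi-likelihood test across all genes to see whether the heat load on the day before sampling went with the level of these genes. None of the 3 genes passed the threshold, where 2.66% of genes did (310 of 11645). The log2 fold change of BOLA-DRB3 was 0.07 (SE 0.09, 95% interval from -0.11 to 0.24, adjusted p = 0.739). For BOLA-DQB it was -0.57 (SE 0.51, interval from -1.57 to 0.43, adjusted p = 0.578), and for BOLA-DQA5 -0.21 (SE 0.62, interval from -1.43 to 1.00, adjusted p = 0.885). The intervals differ in width with the spread between animals. For BOLA-DRB3 a change of 1 log2 unit in either direction lies outside the interval, and for both DQ genes a fall of 1 log2 unit lies within it. The value of BOLA-DQB hung on single dams, with -1.19 without the direct HS dam HS-IU_1516 and -0.21 without the control dam HS-IU_1808, and adjusted p between 0.213 and 0.858 over all dams left out in turn. That of BOLA-DQA5 moved between -0.39 without HS-IU_1721 and -0.08 without HS-IU_1835, both direct HS dams. With DESeq2 the value of BOLA-DQB was -1.19 (adjusted p = 0.109), and with limma-voom that of BOLA-DQA5 was -1.46 (adjusted p = 0.478).

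Control calves were compared with the same control dams, both without heat stress in the labels, where direct heat stress of the calves is not known. All 3 genes were lower in calves, as were 17.4% of the 11762 genes tested, and 39.7% of genes passed the threshold in either direction. BOLA-DRB3 fell by 1.35 on the log2 scale (SE 0.20, 2.56-fold lower, adjusted p = 1.60e-07), and 27 of the 30 calves were below every control dam. BOLA-DQB fell by 2.03 (SE 0.39, 4.07-fold lower, adjusted p = 3.30e-05), with 16 calves below every control dam. BOLA-DQA5 fell by 1.39 (SE 0.52, 2.61-fold lower, adjusted p = 0.031), and its 6 low calves were below every control dam. The adjusted p of BOLA-DQA5 stayed between 0.0209 and 0.0466 with each animal left out in turn, and its log2 fold change was -2.49 with limma-voom (adjusted p = 0.0341). The median log2 fold change of all genes was 0.03. Age and pregnancy differ between dams and calves and cannot be told apart here, and the part of leukocyte composition was not tested.

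The spread between animals was compared as the mean distance from the group median in log2 CPM, by two-sided permutation tests adjusted over 6 comparisons. For BOLA-DRB3 it was 0.736 in calves and 0.207 in control dams (adjusted p = 0.00162), larger in calves. For BOLA-DQB it was 1.09 and 0.960 (adjusted p = 0.760), and for BOLA-DQA5 2.33 and 1.26 (adjusted p = 0.429). Genes in general also spread more in calves, with a median log2 SD of 0.389 against 0.310 in control dams. The share of genes with a larger spread in calves was not counted. Direct HS dams did not differ detectably from control dams in the spread of BOLA-DRB3 (0.144 against 0.207, adjusted p = 0.547), BOLA-DQB (0.957 against 0.960, adjusted p = 0.993) or BOLA-DQA5 (2.44 against 1.26, adjusted p = 0.537).

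The order of animals was then compared between genes, within groups. Since BOLA-DQA5 fell into clusters, its correlations were taken over the animals above its gap only, in place of all animals of a group as first intended. This choice was made after the values were seen, and no r over both clusters is given for these pairs. In control calves, the 3 pairs rose together by this measure. The share of other genes that do so within calves was not counted. Likeness to BOLA-DRB3 was common on another basis, where 819 of 11751 other genes had r above 0.5. That r was taken over 61 animals after subtraction of the group means. Pearson's r was 0.855 between BOLA-DRB3 and BOLA-DQA5 (n = 24, Spearman's rho 0.830, permutation p = 1e-05, the smallest that the permutations can give, adjusted p = 9e-05 over 9 relations). It was 0.727 between BOLA-DQB and BOLA-DQA5 (n = 24, rho 0.715, permutation p = 6e-05, adjusted p = 0.00027) and 0.611 between BOLA-DRB3 and BOLA-DQB (n = 30, rho 0.454, permutation p = 0.00031, adjusted p = 0.00093). Without the 2 calves farthest from the median on the x axis, r was 0.820, 0.698 and 0.491, respectively, and the 3 relations still passed the threshold. The relation to BOLA-DRB3 does not extend to the 6 calves low in BOLA-DQA5, which were left out of it. They had between 362 and 628 CPM of BOLA-DRB3 and ranked from 14 to 25 of the 30 calves, counted from the lowest. The correlations with BOLA-DQA5 therefore hold for its high cluster alone. These calves share the bulk leukocyte origin of their RNA, and the part of leukocyte composition in the correlations was not tested.

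In dams no pair passed the threshold. In control dams, r was 0.363 between BOLA-DRB3 and BOLA-DQB (n = 19, rho 0.418, permutation p = 0.127, adjusted p = 0.229). It was -0.43 between BOLA-DRB3 and BOLA-DQA5 (n = 16, rho -0.397, adjusted permutation p = 0.217) and -0.05 between BOLA-DQB and BOLA-DQA5 (n = 16, rho 0.129, adjusted permutation p = 0.848). In direct HS dams, r was 0.06 between BOLA-DRB3 and BOLA-DQB (n = 12, adjusted permutation p = 0.848), 0.135 between BOLA-DRB3 and BOLA-DQA5 (n = 9, adjusted p = 0.848 in the exact permutation test) and 0.266 between BOLA-DQB and BOLA-DQA5 (n = 9, adjusted p = 0.692 in the exact permutation test). The last value became 0.949 without the 2 dams farthest from the median of the gene on the x axis (n = 7, adjusted p = 0.0169 in the exact permutation test), so it depended on these dams. Whether the correlations differ between dams and calves was not tested.

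Library size was compared with the level of each gene in 9 relations. For BOLA-DQB in direct HS dams, Spearman's rho with log2 library size was 0.846 (n = 12, permutation p = 0.00089, adjusted p = 0.00801) and Pearson's r was 0.653 (permutation p = 0.0229, adjusted p = 0.207), or 0.853 without the 2 farthest dams. The part of depth in the BOLA-DQB values of these dams was not tested further. The other 8 relations had an adjusted p of at least 0.668 for r.

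**Figure D3:**
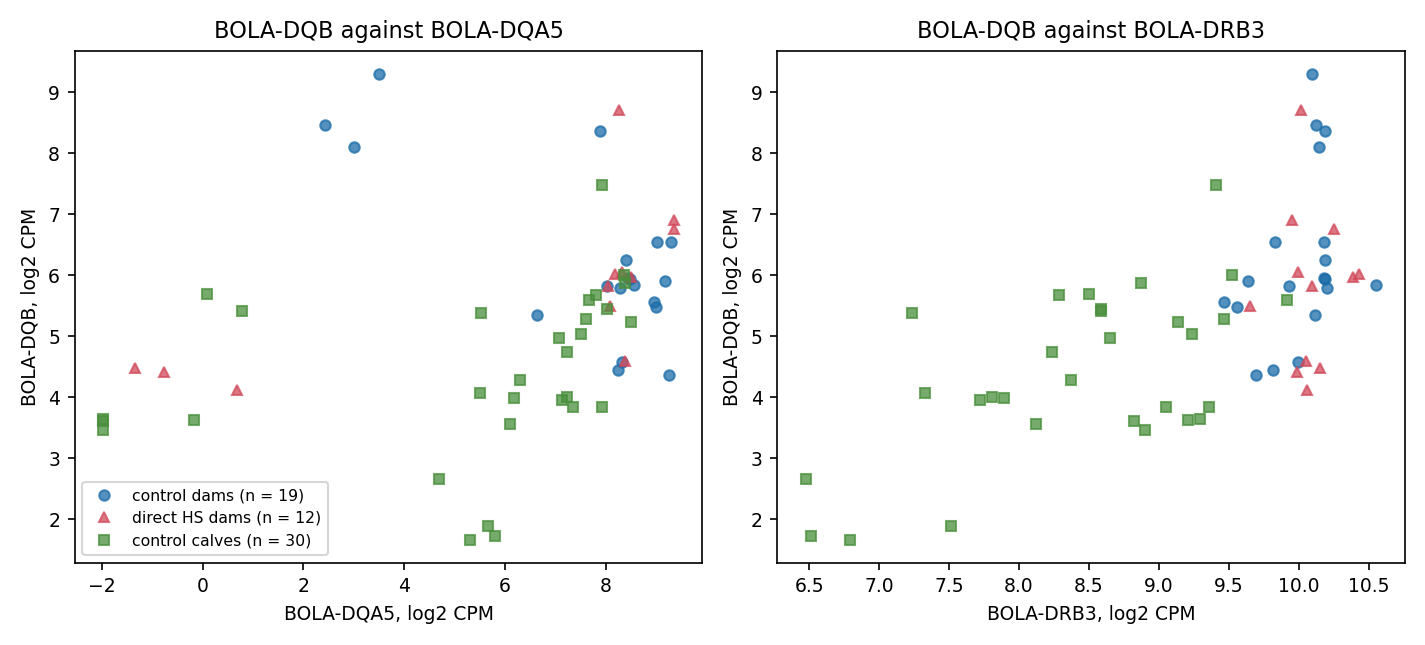
BOLA-DQB against BOLA-DQA5 (left) and against BOLA-DRB3 (right), both axes in log2 CPM, each point an animal by group. Of the animals low in BOLA-DQA5 at the left, 3 control dams are high in BOLA-DQB, 3 direct HS dams are low in it, and the 6 calves range from 10.7 to 51.5 CPM of BOLA-DQB.

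The animals low in BOLA-DQA5 were not alike in BOLA-DQB. The 3 low control dams were among the 4 control dams highest in BOLA-DQB, with 276, 352 and 630 CPM. The 3 low direct HS dams were the lowest of their group in BOLA-DQB, with 17.1, 21.2 and 22.1 CPM. Of the 6 low calves, HS-IU_2012 and HS-IU_2018 had 51.5 and 42.7 CPM of BOLA-DQB, above the group median of 17.9 CPM. The 4 others had 10.7, 11.9, 12.1 and 12.2 CPM, below the group median. High BOLA-DQB also occurred without low BOLA-DQA5, as in the control dam HS-IU_1828 (330 CPM of BOLA-DQB and 235 CPM of BOLA-DQA5), the direct HS dam HS-IU_1516 (417 and 306 CPM) and the calf HS-IU_2009 (179 and 243 CPM).

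Ratios of counts within a library do not depend on library size, apart from counts near 0, where the 0.5 added makes them do so. The log2 ratio of BOLA-DQA5 to BOLA-DRB3 (0.5 added to each count) was sorted in each group and divided wherever neighbouring animals were at least 0.5 apart. In control dams above the low cluster, 10 animals lay between -2.31 and -1.17 and 5 between -0.55 and -0.44, and HS-IU_1700 lay alone at -3.49. In direct HS dams, 7 animals lay between -2.26 and -1.57 and 2 between -0.90 and -0.61. The 24 calves above the gap were not divided and lay between -2.25 and -0.48. Steps of this size were not counted in other genes, and more animals leave smaller steps, so the division is a description and was not compared between groups. For BOLA-DQB over BOLA-DRB3 the SD of the log2 ratio was 1.32, 1.31 and 1.09 in control dams, direct HS dams and control calves.

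For each gene, the genes of the most similar pattern were found by Pearson's r of log2 CPM after subtraction of the group means, over 61 animals and 11751 other genes. These values are descriptions, since genes of a library share its depth and cell composition. For BOLA-DQA5 they include the 12 animals of the low cluster and so measure likeness over both clusters, unlike the correlations above. The pattern of BOLA-DRB3 was common by this measure. Calves weigh most in it, with a log2 SD of 0.93 against 0.27 in control dams and 0.21 in direct HS dams. No r by group was taken, so these values need not hold in dams. ENSBTAG00000010645 (r = 0.946, rho 0.855) and ENSBTAG00000015228 (r = 0.922) were closest, and 819 genes had r above 0.5 and 345 below -0.5. ENSBTAG00000010645 had a median of 3010 CPM in control dams, 2922 CPM in direct HS dams and 1397 CPM in control calves. BOLA-DQB had 18 genes with r above 0.5 and 29 below -0.5, the first led by ENSBTAG00000038128 (r = 0.775, rho 0.823) and ENSBTAG00000019463 (r = 0.627). For BOLA-DQA5 there were 4 such genes, led by ENSBTAG00000008794 (r = 0.557) and again ENSBTAG00000038128 (r = 0.553).

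ENSBTAG00000038128 was named for its r with BOLA-DQB and BOLA-DQA5 over these same animals, so its likeness to them below is partly built in. Its values also differed among the animals low in BOLA-DQA5. In the 3 low control dams it had 389, 412 and 928 CPM, and with HS-IU_1828 (442 CPM) these were the 4 highest of the 19. The other 15 control dams had between 53.8 and 210 CPM. In the 3 low direct HS dams it had 9.36, 9.88 and 11.2 CPM, against 71.1 to 471 CPM in the other 9. The low calves divided in the same manner as in BOLA-DQB. HS-IU_2012 and HS-IU_2018 had 106 and 93.7 CPM, and the other 4 low calves had between 4.90 and 6.19 CPM, the lowest of the 30 calves.

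A single gene had r below -0.5 with BOLA-DQA5, ENSBTAG00000037605 (r = -0.51, rho -0.336), and it was looked at after its values were seen. It was highest where BOLA-DQA5 was low. In the 3 low control dams it had 1896 to 2160 CPM, the 3 highest values of the 19, and in the other 16 it had 412 to 1559 CPM. The 3 low direct HS dams had 1772 to 1942 CPM, the 3 highest of 12, against 311 to 1277 CPM in the other 9. At the other end, the 6 control dams highest in BOLA-DQA5 (496 to 631 CPM) were the 6 lowest in this gene (412 to 482 CPM). The 2 direct HS dams highest in BOLA-DQA5 (651 and 653 CPM) had its lowest values, 420 and 311 CPM. In calves the low animals had at least 720 CPM and the others 45.0 to 1161 CPM, so these ranges overlapped. The 4 calves highest in BOLA-DQA5 ranked from 17 to 23 of 30 in this gene, counted from the highest, and the calf lowest in it (HS-IU_2007, 45.0 CPM) had 55.8 CPM of BOLA-DQA5. Spearman's rho within groups was -0.68 in control dams, -0.71 in direct HS dams and -0.21 in control calves.

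**Figure D4:**
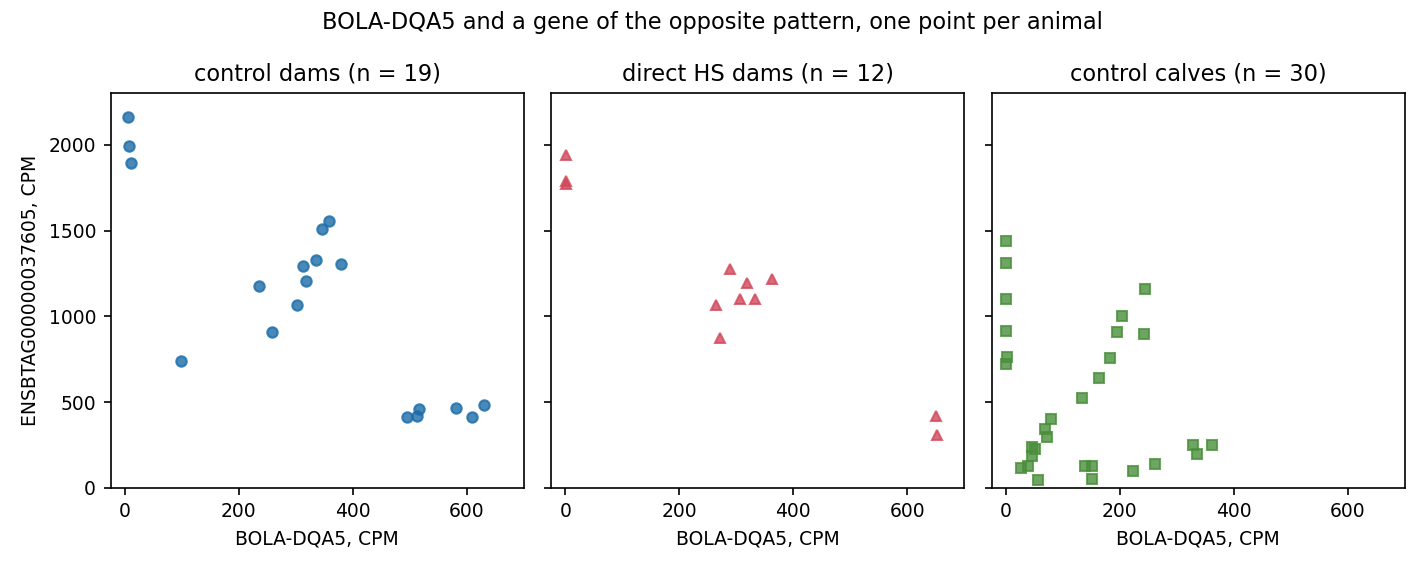
BOLA-DQA5 (horizontal axis, CPM) against ENSBTAG00000037605 (vertical axis, CPM) in control dams, direct HS dams and control calves; each point is an animal. The points were divided into 3 sets in every panel: BOLA-DQA5 near 0, a set with a ratio of BOLA-DQA5 to the other gene between 0.133 and 0.310, and a set with a ratio between 1.11 and 2.87.

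The ratio of BOLA-DQA5 to ENSBTAG00000037605 was sorted among the animals above the low cluster and divided at steps of more than 2-fold, which gave a middle and an upper set in each group. It was between 0.133 and 0.290 in 10 control dams and between 1.12 and 1.47 in 6. In direct HS dams it was between 0.226 and 0.310 in 7 animals and between 1.55 and 2.10 in 2. In calves it was between 0.192 and 0.306 in 15 animals and between 1.11 and 2.87 in 9. Over the 61 animals, 12 were in the low cluster with a ratio of at most 0.00585, 32 were in the middle set and 17 in the upper set, and no animal lay between the middle and the upper set, which were 3.59-fold apart. The calves spread along each set, with BOLA-DQA5 from 25.6 to 243 CPM in the middle set and from 55.8 to 362 CPM in the upper set. These sets were read from the values and are not groups of the study, so no test was made between them. ENSBTAG00000037605 was the most opposite of 11751 genes in these same animals, and the cuts fall at empty steps by rule. Steps of this size were not counted for other pairs of genes, so the division is a description.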

How the data were processed

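Polyadenylated RNA of leukocytes was sequenced in single reads. The authors deposited raw whole-number counts for each gene in each library, over 23010 Ensembl genes and 63 libraries. Per the submitters' processing notes, reads were handled with FastQC 0.12.1, cutadapt 4.2 and STAR 2.7.11a on ARS-UCD1.2. The strand column of the STAR counts is not given in the sources used here, so reads of antisense genes cannot be told apart. Groups came from the labels. The genes and lists were chosen with earlier results of these data known. HS-IU_1804, labelled as a dam without a status, was left out of all comparisons, and HS-IU_2048, the 1 calf with heat stress, entered only the alternative of all calves.

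CPM used TMM factors over all 63 libraries (edgeR 4.0.16, R 4.3.3), and log2 CPM a prior count of 2. Genes with a mean count under 14 were left out. Tests between groups used the quasi-likelihood method of edgeR on the counts, with Benjamini-Hochberg adjustment over all genes at 0.05, without covariates, since the labels lack those of the paper (season and year of calving, lactation class, time to calving, genomic components). The scripts for this test and for the gap were tested on simulated data. Permutation tests were two-sided with 100000 resamples drawn with numpy in Python 3.11, and those of correlations were exact with fewer than 10 animals. Ranks, Fisher's exact test and the exact intervals used scipy 1.17.1. Named genes are the 3 members and, for each, the 2 with the highest r. ENSBTAG00000037605 was added after its values were seen. Its ratio sets were the low cluster of BOLA-DQA5, defined by the gap of that gene, and, among the other animals, runs of the ratio of BOLA-DQA5 to this gene divided at steps of more than 2-fold. Alternatives were DESeq2 1.42.0 (the tool of the paper), limma-voom (limma 3.58.1), RLE factors, no filter, robust dispersions, each animal left out in turn, all dams of known status against all calves, the data without 3 calves, a prior count of 0.5, library size alone and a gap of 1. Libraries held between 4340680 and 19584521 reads, and the level that 0 reads allow was taken as that of 3 reads. These limits and the intervals of shares cover counting error only. Figures were drawn with matplotlib 3.10.9.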

Additional observations from a re-analysis of the deposited data

How the results depend on the processing

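Of 164 values recomputed under another setting, 149 were kept, and so were 307 of 320 with an animal left out. Kept meant the same direction and side of the threshold for a tested value, and within 1.5 times for a count. For a largest gap or an SD it meant the same shape call and a move of less than the SD between animals. That SD was up to 4.11 on the log2 scale, so this last criterion is wide. For the 6 fold changes of the 3 genes, no setting and no animal left out changed the direction or the call. The number of genes past the threshold between direct HS and control dams (310) was 503 with DESeq2, 136 without a filter, and 130 (without HS-IU_1516) to 599 (without HS-IU_1568) with 1 dam left out. On/off genes in control dams (8) were 16 with a prior count of 0.5 and 58 with a gap of 1, in direct HS dams (10) 89 with a gap of 1, and in calves (11) 24 with a prior count of 0.5 and 113 with a gap of 1. On/off genes in all groups (1) were 2 with library size alone, 11 with a gap of 1 and 3 without HS-IU_2008, HS-IU_2010 and HS-IU_2015, BOLA-DQA5 being on/off in each group under all of these. The r of BOLA-DQB and BOLA-DQA5 in control dams (-0.05) changed sign in Spearman's rho (0.129), without the 2 farthest dams (0.401) and, chosen after seeing the data, without the dams above the gap of BOLA-DQB (0.182). The r of BOLA-DRB3 and BOLA-DQB in direct HS dams was -0.0117 without the 2 farthest dams, and that of BOLA-DQB and BOLA-DQA5 passed the threshold (0.949). The cause of these changes was not tested. No paired analysis was possible because the labels give no dam–calf pairs and the groups share no replicate numbers. Depth limits the low cluster of BOLA-DQA5 in direct HS dams and calves, whose levels rest on 0 to 17 reads. The 3 low control dams, with 28 to 83 reads, had 5.16 to 11.1 CPM. This is above the 0.401 to 0.553 CPM that 3 reads stand for in their libraries.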

Other observations

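The 2 animals outside the groups lay within the range of the high cluster of BOLA-DQA5. The library labelled HS-IU_1804, a dam of unknown heat stress status, was left out by the study because it clustered with calves. It had 255 CPM of BOLA-DRB3, below all control and direct HS dams and within the range of control calves (88.6 to 967 CPM), 61.7 CPM of BOLA-DQB and 101 CPM of BOLA-DQA5 (551 reads). HS-IU_2048, the calf with heat stress, had 435 CPM of BOLA-DRB3, 37.4 CPM of BOLA-DQB and 145 CPM of BOLA-DQA5.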
